A study of Mus musculus with 8 samples.

Results

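The zinc-dependent histone deacetylases remove acetyl groups from lysines of histones and of other proteins, using a zinc ion in the catalytic pocket. The genes described are Hdac1, Hdac2, Hdac3, Hdac4, Hdac5, Hdac6, Hdac7, Hdac8, Hdac9 and Hdac11, which the annotation of the array pairs with 17 probe sets. Those 17 were taken because each is annotated to exactly 1 of these 10 genes, out of 45037 non-control probe sets on the array. The pairing of probe sets with genes did not use any measured value, but the genes were chosen with earlier results of these data known. All 17 passed the filter on dim probe sets. Hdac10 is not among these genes and was not analysed here.

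RNA came from a pair of mouse cell lines, SThdh111/111 and SThdh7/7, with 4 samples of each and 1 Affymetrix expression array per sample. SThdh111/111 carries the longer polyglutamine stretch in both alleles of huntingtin (Htt) and models Huntington's disease, and SThdh7/7 carries the short stretch in both alleles. Both are known as striatal cells from embryos of knock-in mice, made to grow by a temperature-sensitive viral T antigen, a feature the lines share. Each genotype is 1 line, so genotype and other differences between the lines cannot be told apart, and the labels do not say whether the samples were separate cultures, so the p-values measure the spread between these samples, which may be technical. The labels give no passage, growth temperature or treatment.

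The family is sorted by sequence into classes with different places of work. Class I enzymes (Hdac1, Hdac2, Hdac3 and Hdac8) sit mainly in the nucleus, and the first 3 act as the catalytic subunits of corepressor complexes that deacetylate histones at repressed genes. Class IIa enzymes (Hdac4, Hdac5, Hdac7 and Hdac9) have little catalytic activity of their own, bind MEF2 transcription factors, and are moved out of the nucleus when kinases phosphorylate them and 14-3-3 proteins bind. Hdac6, of class IIb, is a cytoplasmic tubulin deacetylase, and Hdac11 is the only member of class IV. Inhibitors of these enzymes have been studied in models of Huntington's disease, and the title of the series concerns lower histone acetylation at genes with reduced expression. The comparison below asks whether transcripts of the deacetylases themselves differed between the lines.

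Values are log2 of the deposited intensity. A difference is SThdh111/111 minus SThdh7/7, with its standard error and 95% interval from 1 limma fit over all kept probe sets. A probe set was called when its p, adjusted by Benjamini-Hochberg over those 41409 probe sets, was under 0.05. Over all kept probe sets the median difference was -0.12 as deposited and 0.04 with the arrays centred on their medians, and small differences can be read against that shift. Calls numbered 9288, of which 56.0% were lower in SThdh111/111, and 7022 after centring, of which 39.5% were lower. A floor for dim probe sets was set at a log2 of 7.02, an intensity of 129.8, from bacterial control probe sets.

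The arrays of the lines correlated at 0.866 to 0.885 with each other, against 0.922 to 0.924 within SThdh111/111 and 0.906 to 0.927 within SThdh7/7. SThdh7/7 samples 1 and 2 stood apart, with the median intensity highest on these arrays. Each result below was also computed without these 2 arrays. Htt itself differed by -0.42 ± 0.16 (SE) at its brightest probe set and was not called there (adjusted p = 0.084), but 1 of its 3 other probe sets was called lower (difference -1.09 ± 0.32 SE; adjusted p = 0.024). Of the markers of striatal neurons, Drd1 and Ppp1r1b lay below the floor on all 8 arrays. Vim, an intermediate filament of undifferentiated neural and mesenchymal cells, was bright in both lines, at 15.50 ± 0.05 in SThdh111/111 and 15.50 ± 0.10 in SThdh7/7 (SD, n = 4 each). Vim belongs to the 9 neural progenitor markers described below, of which 5 fell in SThdh111/111 (median difference -1.38).

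Of the 10 genes, 3 fell and 1 rose in SThdh111/111. Hdac9 fell most, Hdac6 and Hdac4 fell by less than 2-fold, and Hdac1 rose slightly. The 4 called genes are 40% of the family, against 29.0% of all 17389 named genes with 1 probe set each, of which 13.1% were called higher and 15.9% lower. Over all probe sets of the family 4 of 17 were called (23.5%), against 22.4% of all kept probe sets, 9.87% higher and 12.6% lower. The share of called probe sets lay close to that of the whole array. The share of called genes was above that of all named genes, but it rests on few genes. The alternatives called 3 to 5 of them, and after centring 3 of 10 were called (30%). Centring also lowered the share over all kept probe sets, to 17%, against 17.6% of the probe sets of the family. The share of all named genes called after centring was not computed, so the 30% cannot be set against the 29.0%. The median difference of the 10 genes was -0.09, the same as over all named genes at -0.09. The groups did not overlap in 5 of the 10 genes, against 31.6% of named genes, and in 7 of the 17 probe sets, against 25.1%.

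**Figure D1:**
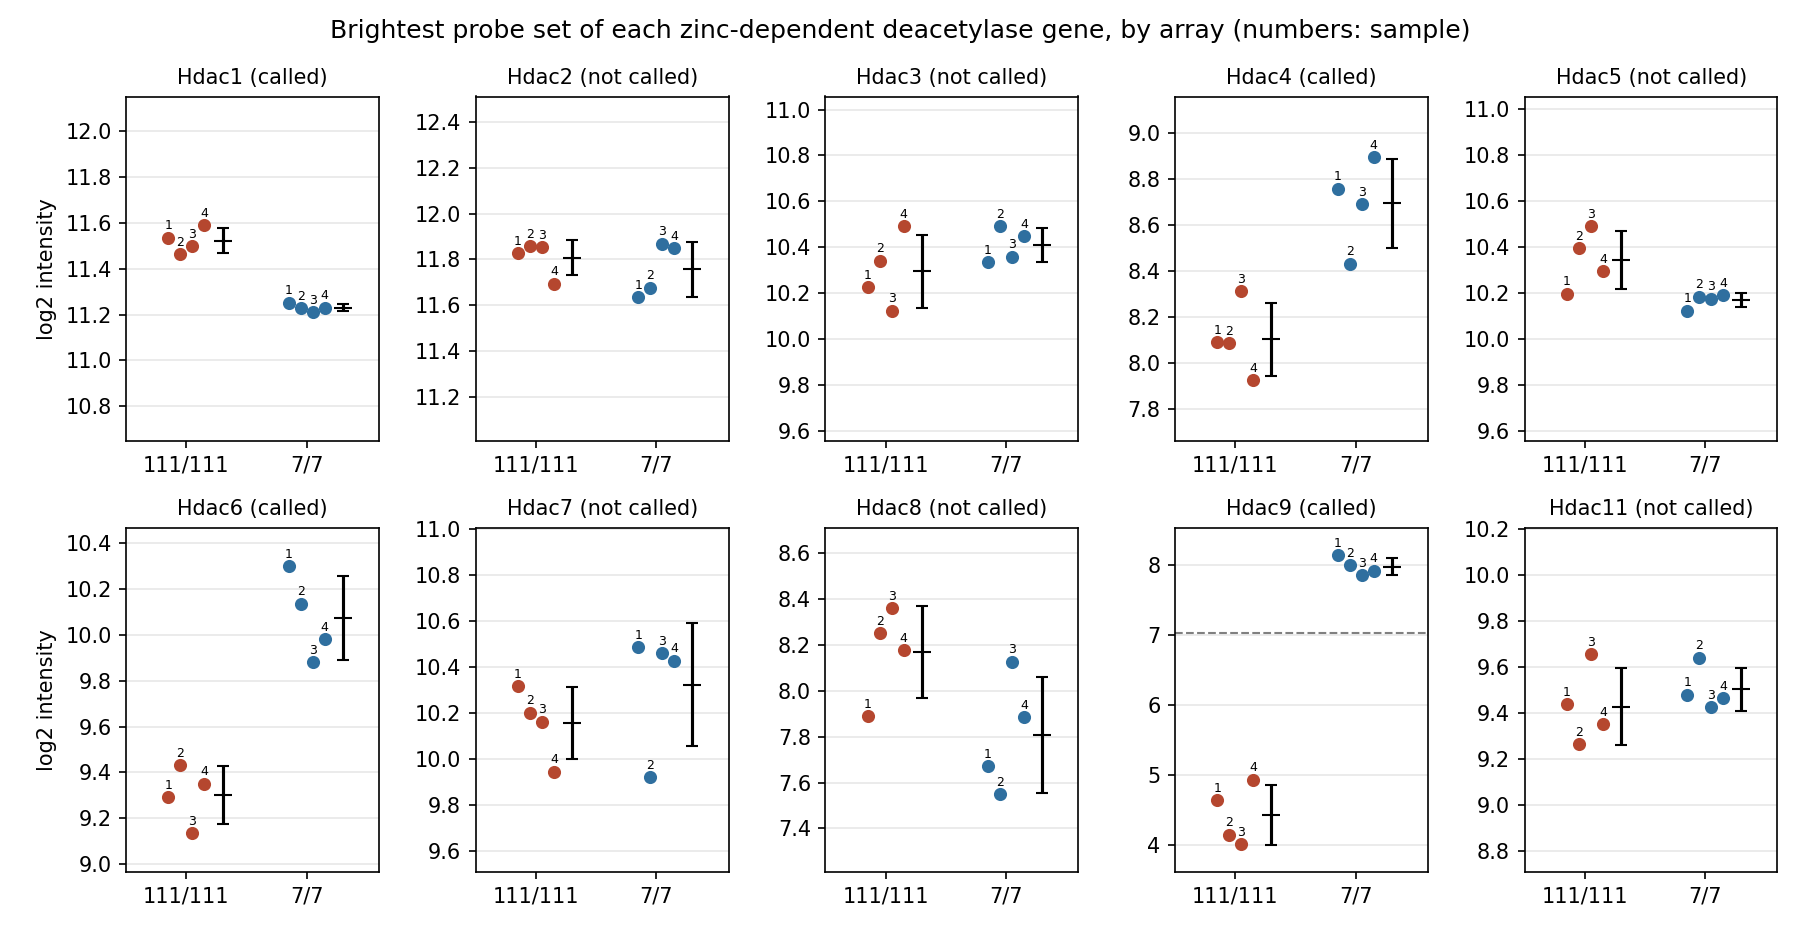
Log2 intensity at the brightest probe set of each of the 10 genes (vertical axes, with a different range in each panel), in SThdh111/111 (left) and SThdh7/7 (right). Points are single arrays numbered by sample, black bars are the mean ± SD of 4 arrays, and the dashed line in the Hdac9 panel is the floor at 7.02. The lines separate without overlap for Hdac1, Hdac4, Hdac5, Hdac6 and Hdac9, and Hdac9 alone of these lies below the floor in SThdh111/111.

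The start regions of the 3 genes that fell are shown because those of Hdac9 differ from those of Hdac4 and Hdac6 in the motifs and CpG dinucleotides counted below. They are RefSeq windows of GRCm38.p6, 250 bases before to 50 bases after each annotated start, 5′ to 3′ on the strand of the gene. RefSeq windows were found for 8 of the 10 genes, and Hdac1 and Hdac3 are the others. Capitals mark exact matches on either strand to 4 motifs, with overlapping matches merged. The letters searched were GGGCGG for a GC box, CCAAT for a CCAAT box, TATAAA for a TATA box and CACGTG for an E-box. Hdac4 is on chromosome 1, Hdac6 on chromosome X and Hdac9 on chromosome 12, all 3 on the minus strand, and Hdac9 has 2 annotated starts.
Hdac4, chr1:92180292-92180591: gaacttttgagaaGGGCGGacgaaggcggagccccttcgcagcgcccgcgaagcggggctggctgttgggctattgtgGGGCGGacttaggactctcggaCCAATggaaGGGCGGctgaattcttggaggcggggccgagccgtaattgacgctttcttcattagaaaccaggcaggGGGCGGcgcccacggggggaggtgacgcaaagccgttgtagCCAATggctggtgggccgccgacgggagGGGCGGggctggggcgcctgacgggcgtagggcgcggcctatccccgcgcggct
Hdac6, chrX:7947840-7948139: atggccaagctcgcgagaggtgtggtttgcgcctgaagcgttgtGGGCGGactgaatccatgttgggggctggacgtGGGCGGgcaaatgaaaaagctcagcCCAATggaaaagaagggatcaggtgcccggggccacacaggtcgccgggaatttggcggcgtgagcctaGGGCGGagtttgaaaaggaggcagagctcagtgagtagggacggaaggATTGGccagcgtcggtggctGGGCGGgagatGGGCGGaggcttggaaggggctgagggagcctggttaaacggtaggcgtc
Hdac9, distal start, chr12:34917046-34917345: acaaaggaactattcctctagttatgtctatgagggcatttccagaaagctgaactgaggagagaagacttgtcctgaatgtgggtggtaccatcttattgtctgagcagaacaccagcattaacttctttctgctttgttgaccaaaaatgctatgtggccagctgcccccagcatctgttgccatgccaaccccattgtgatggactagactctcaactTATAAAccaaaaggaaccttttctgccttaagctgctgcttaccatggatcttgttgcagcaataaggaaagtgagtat
Hdac9, proximal start, chr12:34528840-34529139: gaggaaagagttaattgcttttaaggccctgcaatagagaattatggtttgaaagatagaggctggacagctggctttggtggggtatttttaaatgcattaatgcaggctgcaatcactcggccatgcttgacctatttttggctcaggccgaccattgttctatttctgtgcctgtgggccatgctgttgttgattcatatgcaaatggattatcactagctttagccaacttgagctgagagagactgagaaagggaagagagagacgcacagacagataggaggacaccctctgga

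The windows of Hdac4 and Hdac6 each held 5 GC boxes and 2 CCAAT boxes, and they held 32 and 20 CpG dinucleotides. Neither Hdac9 window held a GC box or a CCAAT box, and they held 0 and 3 CpG dinucleotides, with a TATA box in the distal one. Among 32851 windows of the same length the median was 7 CpG dinucleotides, 35.7% held a GC box, 37.4% a CCAAT box, 13.6% a TATA box and 7.15% an E-box. Of the other members, Hdac2, Hdac5 and Hdac11 had 1 GC box each, Hdac8 had none, and 1 of the 4 Hdac7 windows had 1. Hdac2, Hdac5 and Hdac11 held 36, 18 and 22 CpG dinucleotides. The Hdac8 window, of a gene not called, held 6, with 2 CCAAT boxes and a TATA box. The Hdac7 windows with neither a GC box nor a CCAAT box held 6, 35 and 5 CpG dinucleotides. The consensus of MEF2, matched in 3.19% of all windows, was found in the Hdac5 window alone among the members. These matches describe the letters in these windows and show neither binding nor use of a start in these cells.

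Among the class I genes, Hdac1 rose and the others were not called. Hdac1 (probe set 1448246_at), a catalytic subunit of the NuRD, Sin3 and CoREST corepressors, measured 11.53, 11.46, 11.50 and 11.59 in SThdh111/111, against 11.25, 11.23, 11.21 and 11.23 in SThdh7/7. All 4 SThdh111/111 arrays lay above all 4 SThdh7/7 arrays, and the SThdh7/7 arrays agree within an SD of 0.02. The rise was 0.29 ± 0.06 (SE; 95% interval 0.16 to 0.42; adjusted p = 0.0029), or 1.22-fold. It was 0.30 without SThdh7/7 samples 1 and 2 (adjusted p = 0.0088), and without an intensity trend in the variance the call was lost (adjusted p = 0.065).

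Hdac2, the close paralogue of Hdac1 that shares its complexes, had 3 probe sets, and none was called. At the brightest (1445684_s_at) it measured 11.83, 11.86, 11.85 and 11.69 in SThdh111/111, against 11.64, 11.68, 11.87 and 11.85 in SThdh7/7, and the lines overlapped (difference 0.05 ± 0.07 SE; 95% interval -0.11 to 0.21; adjusted p = 0.70). SThdh7/7 samples 1 and 2 were the lower pair (-0.20, samples 1 and 2 minus samples 3 and 4). Without them the difference between the lines was -0.05 (adjusted p = 0.71). The second (1449080_at) measured 11.24, 11.16, 11.17 and 11.14 in SThdh111/111, against 10.63, 10.63, 11.11 and 11.12 in SThdh7/7. There the lines did not overlap, but the low values were those of SThdh7/7 samples 1 and 2, which lay 0.48 below samples 3 and 4 (difference -0.48, samples 1 and 2 minus samples 3 and 4). The difference between the lines was 0.30 ± 0.11 (SE; adjusted p = 0.076) and was 0.06 without samples 1 and 2 (adjusted p = 0.61). The third Hdac2 probe set (1439704_at) was dim, passing the floor on 3 of 4 SThdh111/111 arrays and 2 of 4 SThdh7/7 arrays, and differed by 0.02 ± 0.32 (SE).

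Hdac3, the catalytic subunit of a nuclear receptor corepressor complex, has a single probe set (1426437_s_at). It measured 10.23, 10.34, 10.12 and 10.49 in SThdh111/111, against 10.33, 10.49, 10.36 and 10.45 in SThdh7/7. The values interleaved, and the difference was -0.11 ± 0.09 (SE; 95% interval -0.31 to 0.08; adjusted p = 0.45). Hdac8 (1428933_at), which deacetylates the cohesin subunit Smc3, measured 7.89, 8.25, 8.36 and 8.18 in SThdh111/111, against 7.67, 7.55, 8.13 and 7.89 in SThdh7/7. Its difference of 0.36 ± 0.20 (SE; 95% interval -0.07 to 0.79; adjusted p = 0.25) was larger than that of Hdac1 but less precise, and was 0.16 without SThdh7/7 samples 1 and 2, again the lowest pair. The intervals of Hdac2 at its brightest probe set and of Hdac3 leave out a change of 2-fold in either direction, as does that of Hdac8.

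Among the class IIa genes, Hdac9 and Hdac4 fell in SThdh111/111, and Hdac5 and Hdac7 were not called. Hdac9, a MEF2 corepressor expressed in brain and muscle, was measured at intensities of 25.0, 17.8, 16.2 and 30.6 in SThdh111/111, against 281.9, 254.1, 230.7 and 241.0 in SThdh7/7 (probe set 1434572_at). All 4 SThdh111/111 arrays lay far below the floor of 129.8 and all 4 SThdh7/7 arrays above it. On the log2 scale these are 4.44 ± 0.43 in SThdh111/111 and 7.97 ± 0.12 in SThdh7/7 (SD, n = 4 each), a fitted difference of -3.53 ± 0.42 (SE; adjusted p = 2.3e-05). Since the signal in SThdh111/111 lay below the floor, Hdac9 was at least 1.94-fold lower there, and at least 3.35-fold lower when the dim line was set to the floor of its own arrays, a choice made after seeing the data. In SThdh7/7 the probe set was itself dim, the dimmest of the 10 brightest probe sets after Hdac8 there. The call held under all other fits that kept the probe set, including -3.44 without SThdh7/7 samples 1 and 2 (adjusted p = 0.0015).

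The second Hdac9 probe set (1421306_a_at) lay below the floor on all 8 arrays, at 4.63, 3.31, 6.93 and 4.12 in SThdh111/111 and 4.75, 4.20, 6.79 and 6.54 in SThdh7/7. These values overlap and spread widely in both lines, so no fold is given. The called fall of Hdac9 therefore rests on 1 of its 2 probe sets.

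Hdac4, which represses MEF2 target genes, had 3 probe sets, all lower on average in SThdh111/111 and 1 of them called. The brightest (1454693_at) measured 8.09, 8.09, 8.31 and 7.92 in SThdh111/111, against 8.76, 8.43, 8.69 and 8.90 in SThdh7/7, without overlap. The fall was 0.59 on the log2 scale (difference -0.59 ± 0.16 SE; 95% interval -0.94 to -0.24; adjusted p = 0.016), to 66.3% of SThdh7/7. That call was not firm. It was lost after arrays were centred on their medians (-0.44; adjusted p = 0.16), with the mean over the 3 probe sets (-0.50; adjusted p = 0.063) and without SThdh7/7 sample 4 (-0.52; adjusted p = 0.055), and it held without SThdh7/7 samples 1 and 2 (-0.69; adjusted p = 0.018). The probe set 1436758_at measured 8.08, 7.60, 7.49 and 6.75 in SThdh111/111 and 8.24, 7.92, 8.30 and 8.11 in SThdh7/7, and 1447566_at differed by -0.25 ± 0.24 (SE; adjusted p = 0.53). The difference at 1436758_at, -0.66 ± 0.27 (SE; adjusted p = 0.10), was about as large as at the brightest, but SThdh111/111 sample 1 overlapped SThdh7/7 and sample 4 lay below the floor. The intensity of sample 4 was 107.3, above the floor of its own array at 75.7.

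Hdac5, the class IIa enzyme exported from the nucleus in response to calcium signals in neurons and muscle, measured 10.20, 10.39, 10.49 and 10.29 in SThdh111/111, against 10.12, 10.18, 10.18 and 10.19 in SThdh7/7 (1415743_at). All SThdh111/111 arrays lay above all SThdh7/7 arrays, sample 1 only just, but the difference of 0.18 ± 0.08 (SE; 95% interval -0.01 to 0.36) was not called (adjusted p = 0.17). Hdac7, best known from blood vessels and developing T cells, had 2 probe sets. The brighter (1420813_at) measured 10.32, 10.20, 10.16 and 9.94 in SThdh111/111, against 10.49, 9.92, 10.46 and 10.43 in SThdh7/7, a difference of -0.17 ± 0.13 (SE; adjusted p = 0.42). SThdh7/7 sample 2 was as low as the lowest SThdh111/111 array, and without it the difference was -0.30 and called (adjusted p = 0.045). The probe set was not called without SThdh7/7 samples 1 and 2 (-0.29, adjusted p = 0.093) or after centring (-0.01, adjusted p = 0.97). The dimmer Hdac7 probe set (1420812_at) measured 9.25, 9.15, 9.43 and 9.07 in SThdh111/111 and 9.57, 9.46, 9.47 and 9.71 in SThdh7/7, without overlap, and just missed the threshold (-0.33 ± 0.11 SE; adjusted p = 0.051). This dimmer probe set was called in 4 of 18 alternatives, but was at -0.18 after centring (adjusted p = 0.50).

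Hdac6, which deacetylates alpha-tubulin and cortactin and carries ubiquitinated proteins to aggresomes, was the bright member with the largest difference. Its probe set (1448928_at) measured 9.29, 9.43, 9.13 and 9.35 in SThdh111/111, against 10.30, 10.14, 9.88 and 9.98 in SThdh7/7. The lowest SThdh7/7 array lay above the highest SThdh111/111 array, and every array was far above the floor. Hdac6 fell by 0.77 on the log2 scale (difference -0.77 ± 0.11 SE; 95% interval -1.01 to -0.53; adjusted p = 1.6e-04), to 58.6% of SThdh7/7. The call held under all 19 other fits tried for it, with differences of -0.84 to -0.62, including -0.63 without SThdh7/7 samples 1 and 2, which were its 2 highest arrays.

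Hdac11, of class IV, did not separate the lines at either probe set. The brighter over all 8 arrays (1451229_at) measured 9.44, 9.26, 9.66 and 9.35 in SThdh111/111 and 9.48, 9.64, 9.43 and 9.46 in SThdh7/7 (difference -0.08 ± 0.11 SE; 95% interval -0.31 to 0.16; adjusted p = 0.71). The other (1454803_a_at) differed by -0.11 ± 0.18 (SE; adjusted p = 0.75), with SThdh7/7 sample 1 at 9.87 above all other arrays. The sign of the brightest probe set's difference turned for Hdac2, Hdac3 and Hdac11 under some alternatives, none of which called them.

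**Figure D2:**
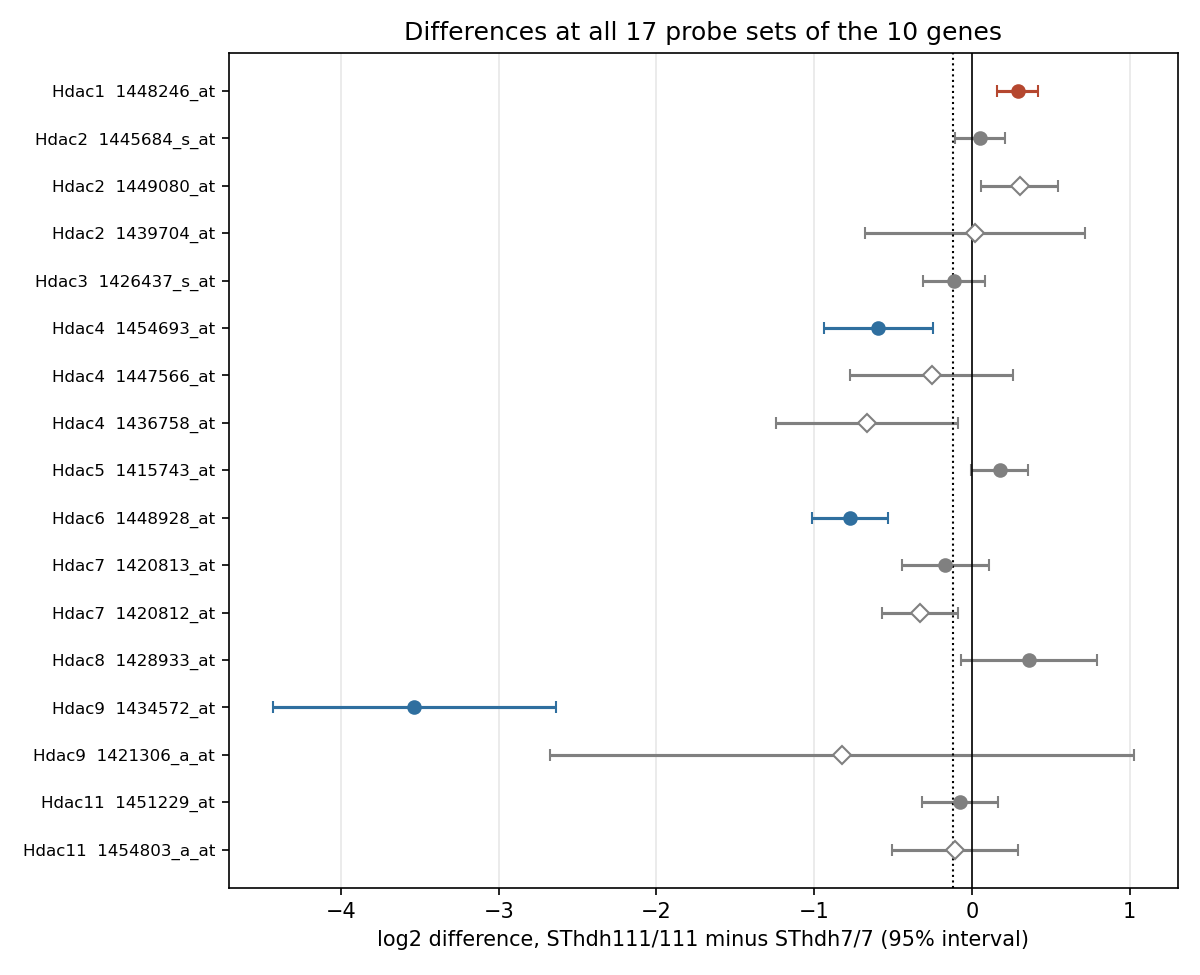
Log2 difference (SThdh111/111 minus SThdh7/7, horizontal axis) with its 95% interval at each of the 17 probe sets (rows). Filled circles are the brightest probe set of a gene and open diamonds its others, red is called higher in SThdh111/111, blue called lower and grey not called, and the dotted line is the median of all kept probe sets at -0.12. The interval of the called Hdac9 probe set runs from -4.43 to -2.64, those of the other brightest probe sets lie within 1.01 of 0, and the second Hdac9 probe set has the widest interval.

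**Figure D3:**
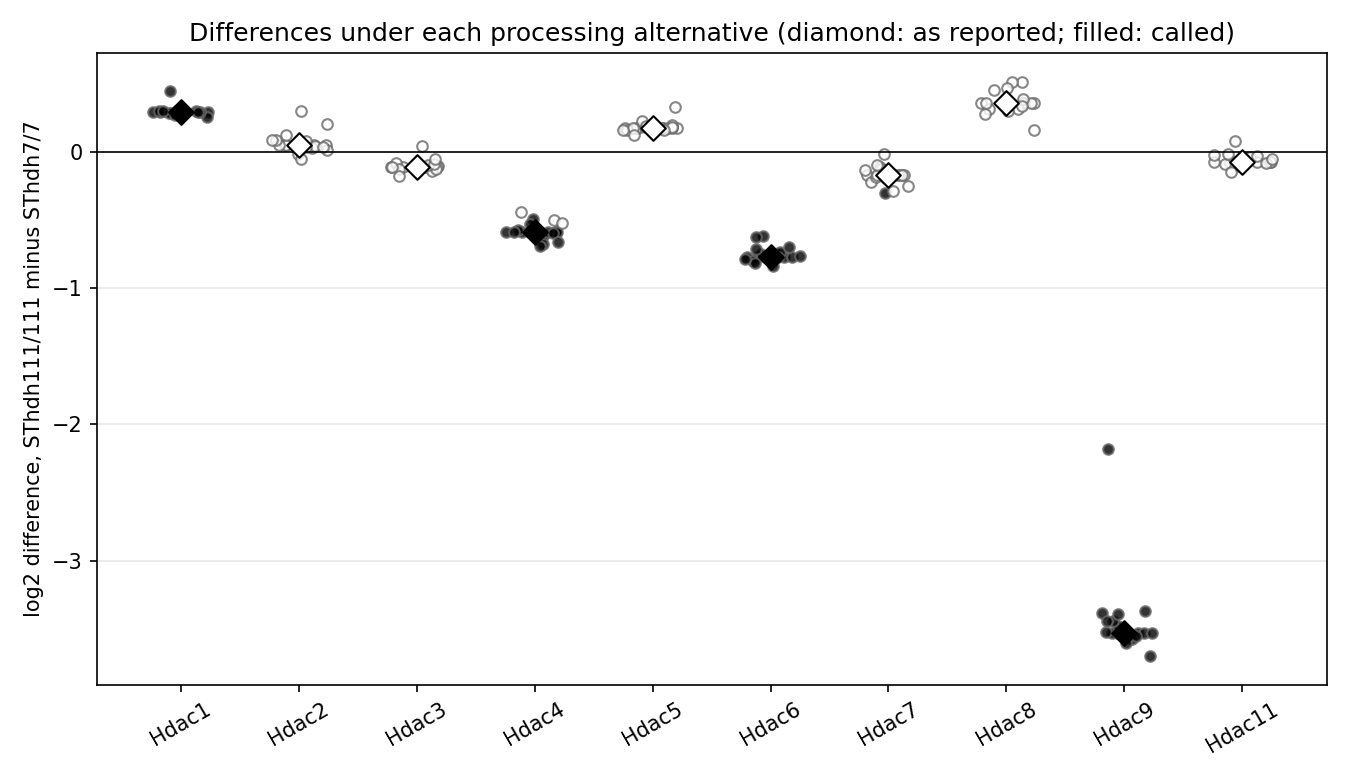
Log2 difference (SThdh111/111 minus SThdh7/7, vertical axis) at the brightest probe set of each of the 10 genes, as reported (diamonds) and under each other fit (circles). Filled symbols are calls at an adjusted p under 0.05. Hdac6 and Hdac9 are filled in every fit, Hdac1 and Hdac4 in most, and Hdac7 in 1, while the single Hdac9 circle at -2.18 is the mean over its 2 probe sets.

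The corepressor complexes that hold class I enzymes were described by lists of their other subunits, at 1 probe set per gene. In the NuRD complex, a nucleosome remodeller with deacetylase activity, 2 of 13 genes rose and 4 fell (46.2% called, against 29.0% of all named genes; median difference -0.05, against -0.09), but after centring 2 were higher and 0 lower (15.4%). Of all kept probe sets 17% were called after centring, and the centred share of all named genes was not computed for this or the other lists. Chd3, a remodelling ATPase of NuRD, rose to 9.71 ± 0.16 in SThdh111/111, against 8.84 ± 0.19 in SThdh7/7 (SD, n = 4 each; difference 0.87 ± 0.13 SE; adjusted p = 1.6e-04). Mbd2, a reader of methylated DNA, rose by 0.36 ± 0.11 (SE), a call lost in 5 of 19 alternatives. The scaffold gene Gatad2a and the small subunit gene Cdk2ap1 fell by 0.37 and 0.38 on the log2 scale, and both calls were lost after centring.

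Of 15 measured genes of the Sin3 complex 2 rose and 4 fell (40% called; median -0.04), counting Rbbp4 and Rbbp7, histone-binding subunits that are in the NuRD list too. After centring 1 was higher and 1 lower (13.3%). Sinhcaf, a Sin3 subunit, fell to 8.21 ± 0.09 in SThdh111/111, against 9.07 ± 0.25 in SThdh7/7 (SD, n = 4 each; difference -0.86 ± 0.15 SE; adjusted p = 8.2e-04). Sap30l fell by 0.40 on the log2 scale, a call lost after centring. The rises of Arid4b (0.42 ± 0.13 SE) and Suds3 (0.25 ± 0.08 SE) were lost in 9 and 11 of 19 alternatives.

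In CoREST, which pairs deacetylases with the demethylase Kdm1a, 1 of 9 genes rose and 2 fell (33.3% called; median -0.05), and after centring 1 was higher and 0 lower. Gse1 rose by 0.66 ± 0.16 (SE), but by 0.19 with only the probe sets specific to 1 transcript (adjusted p = 0.64). Rcor3 and Hmg20b fell by 0.55 and 0.34 on the log2 scale, and both calls were lost after centring. Of 4 measured genes listed for the corepressor complex of Hdac3, 1 fell (25.0% called; median -0.08). That gene was Coro2a (difference -0.89 ± 0.29 SE; adjusted p = 0.042), above the floor on 1 of 4 SThdh111/111 arrays, and its call was lost in 10 of 18 alternatives. In the MiDAC complex 0 of 2 measured genes were called by limma, and 0 had an unadjusted p under 0.05. The same held for 2 measured subunits of casein kinase CK2, which phosphorylates class I enzymes, with 0 calls and 0 at an unadjusted p under 0.05.

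Partners of the class IIa enzymes moved in both directions. Of the 4 MEF2 factors 1 rose and 1 fell (50% called; median 0.19), and after centring 1 was higher and 0 lower. Mef2a rose to 10.89 ± 0.09 in SThdh111/111, against 10.26 ± 0.14 in SThdh7/7 (SD, n = 4 each; difference 0.64 ± 0.09 SE; adjusted p = 8.8e-05), and 3 of its 5 other probe sets were called higher too. Mef2d fell by 0.30 on the log2 scale, a call lost in 11 of 19 alternatives. Of 15 kinases that phosphorylate class IIa enzymes or belong to the same families, 3 rose and 3 fell (40% called; median -0.02). The salt-inducible kinase gene Sik1 fell to 7.92 ± 0.49 in SThdh111/111, against 9.19 ± 0.17 in SThdh7/7 (SD, n = 4 each; difference -1.27 ± 0.22 SE; adjusted p = 6.0e-04). Its relatives Sik2 and Sik3 rose by 0.57 ± 0.10 and 0.61 ± 0.11 (SE), and the kinase gene Mark3 fell by 0.66 on the log2 scale. Sik3 and Mark3 kept their calls in all alternatives run for them, and Sik1 and Sik2 lost theirs in 1 each, with the mean over probe sets.

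The 14-3-3 proteins, which hold phosphorylated class IIa enzymes in the cytoplasm, are encoded by Ywha genes and Sfn. Of 7 measured, 2 rose and 3 fell (71.4% called; median -0.05), the called ones all by less than 2-fold, and Sfn lay below the floor on all 8 arrays. After centring 2 were higher and 0 lower, and after quantile normalization 0 were higher and 4 lower, so their direction rests on the scaling. Ywhah fell to 11.57 ± 0.09 in SThdh111/111, against 12.05 ± 0.04 in SThdh7/7 (SD, n = 4 each), and Ywhae fell by 0.35 on the log2 scale, with all 3 of its other probe sets lower too. Ywhaz and Ywhab rose by 0.32 ± 0.06 and 0.30 ± 0.09 (SE). After quantile normalization these rises were 0.06 and 0.08 and not called, and of the 6 other Ywhaz probe sets 3 were called higher and 1 lower. After centring the calls of Ywhah and Ywhae were lost.

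Of 8 genes known as targets of MEF2 and class IIa enzymes in other cells, 3 rose and 1 fell (50% called; median 0.19). The nuclear receptor gene Nr4a1 rose to 11.37 ± 0.52 in SThdh111/111, against 10.12 ± 0.21 in SThdh7/7 (SD, n = 4 each; difference 1.25 ± 0.20 SE; adjusted p = 3.9e-04). Klf2, a Krüppel-like transcription factor gene, rose by 1.05 ± 0.20 (SE). The matrix metalloproteinase gene Mmp10 was lower (difference -1.62 ± 0.28 SE; adjusted p = 7.1e-04), with 2 of 4 SThdh111/111 arrays and all 4 SThdh7/7 arrays above the floor.

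Of 10 measured partners and substrates of Hdac6, 2 rose and 1 fell (30% called; median -0.00), with 3 higher and 0 lower after centring and 3 higher and 4 lower after quantile normalization. Tuba4a, an alpha-tubulin gene, rose to 10.83 ± 0.07 in SThdh111/111, against 9.37 ± 0.04 in SThdh7/7 (SD, n = 4 each; difference 1.46 ± 0.08 SE; adjusted p = 1.1e-08). Dync1h1, the heavy chain of cytoplasmic dynein, rose by 0.43 ± 0.09 (SE), a call lost with the mean over its probe sets. Plaa, a ubiquitin-binding protein gene, fell by 0.25 on the log2 scale, a call lost in 3 of 19 alternatives. Of 5 cohesin genes, the complex that Hdac8 acts on, 2 fell (40% called; median -0.34). These were Smc1a and Rad21, lower by -0.42 ± 0.07 and -0.34 ± 0.09 (difference, SE), and both calls were lost after centring.

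**Figure D4:**
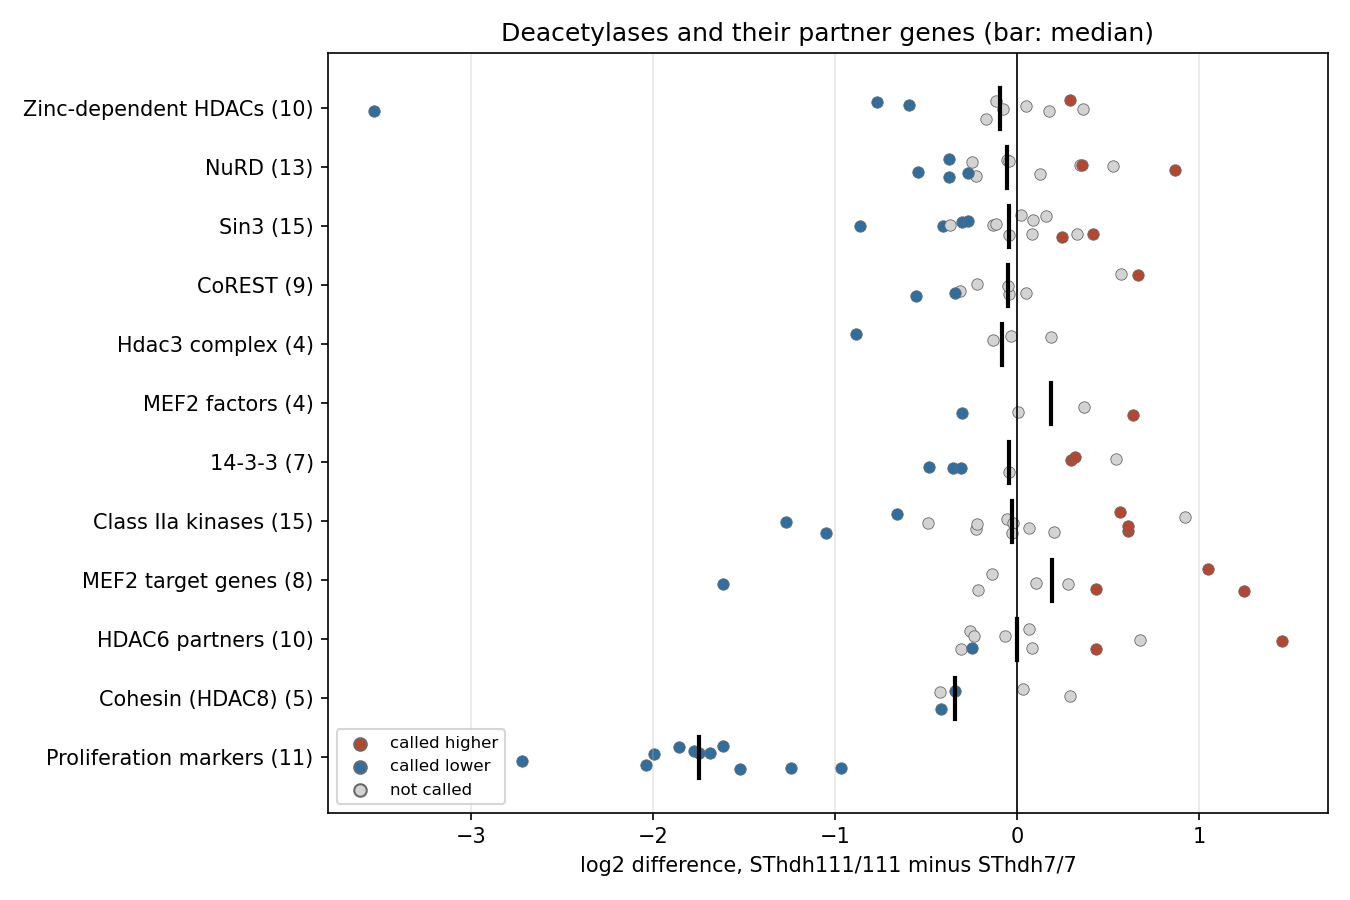
Log2 difference (SThdh111/111 minus SThdh7/7, horizontal axis) of each measured gene of the deacetylase family, of its partner lists and of the proliferation markers, at 1 probe set per gene. Red points are called higher in SThdh111/111, blue called lower and grey not called, black bars are list medians, and the number of measured genes follows each name. The deacetylase, NuRD, Sin3 and CoREST lists have medians near 0 and members on both sides of it, whereas all 11 proliferation markers are blue.

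The lines also differed in markers of cell state, and these are given because transcripts of deacetylases can vary with it. In RNA from whole cultures, fewer cells of a type and less RNA per cell cannot be told apart. All 11 measured proliferation markers fell in SThdh111/111 (median -1.75), with a mean log2 level per array of 9.27 to 9.34, against 11.00 to 11.15 in SThdh7/7. Rrm2 and Mcm2, genes of nucleotide synthesis and of replication licensing, fell, with differences of -1.86 and -1.62. Of 9 neural progenitor markers 5 fell (median -1.38), with mean levels of 7.56 to 8.51 in SThdh111/111 and 9.66 to 9.89 in SThdh7/7, among them Hes1 and Sox2 (differences -2.12 and -2.06). Of 8 fibroblast markers 7 rose (median 2.38), with mean levels of 12.26 to 12.45 in SThdh111/111 and 9.11 to 9.46 in SThdh7/7, among them Dcn and Col1a2. Of 10 striatal markers 2 rose (Penk, dim in SThdh7/7 with 1 of its 4 arrays above the floor, and Foxp1) and 2 fell (Meis2 and Rgs9). With only probe sets specific to 1 transcript Meis2 was at -0.64 and not called (adjusted p = 0.47), and the calls of Rgs9 and Foxp1 were lost with the mean over their probe sets. Called shares were 100% of the proliferation, 55.6% of the progenitor, 87.5% of the fibroblast and 40% of the striatal markers. Of all named genes 29.0% were called, 13.1% higher and 15.9% lower, and the striatal share rests on only 10 genes. The part of these marker differences in those of Hdac1, Hdac4, Hdac6 and Hdac9 was not tested.

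Glial, neuronal and vascular markers were called in shares on both sides of the 29.0% of all named genes. These were 37.5% for astrocyte and for microglia markers, 20% for neuronal and for oligodendrocyte markers, and 16.7% for endothelial markers. Median differences were 0.35 for astrocyte, 0.39 for microglia, -0.64 for neuronal, -0.18 for oligodendrocyte and -0.15 for endothelial markers. In the astrocyte list 2 of 8 rose (Gja1 and Slc1a3) and 1 fell (Aldh1l1), and of 8 microglia markers 2 rose (Csf1r and Tmem119) and 1 fell (Cd68), while Aif1, Itgam and Ptprc of the microglia list lay below the floor on all 8 arrays. Of 10 neuronal markers 2 fell (Map2, and Stmn2, whose mean lay below the floor in both lines), of 5 oligodendrocyte markers 1 fell (Cnp) and of 6 endothelial markers 1 fell (Cldn5, below the floor on all SThdh111/111 arrays). The calls of Stmn2, Cldn5 and Cnp were lost in 8, 7 and 3 of 18 alternatives. That of Tmem119 was lost in 2 of 19, and those of Map2, Csf1r and Slc1a3 in 1 of 19 each. Aldh1l1 was not called with the mean over its probe sets (-0.65, adjusted p = 0.28). Gja1 and Cd68 kept their calls in all alternatives.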

How the data were processed

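The deposited table gives 1 linear intensity per probe set and array. Per the labels' protocols, RNA was extracted with Tri-reagent, cleaned on RNeasy columns and labelled with biotin for Affymetrix arrays. GCRMA is the only tool in the submitters' processing notes, but the deposited intensity values had a mean of 500.0 on all 8 arrays after a trim of 2% at each end, which MAS5 or GCOS scaling gives, and which tool made them is not settled. The number of arrays limits the precision.

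Log2 was taken, 64 control probe sets were left out, and probe sets with a log2 of at least 4 on at least 4 arrays were kept, 41409 of 45037. Names came from the platform annotation (34945 probe sets with 1 gene, 932 with several, 9160 with none, and only the first kind used), with symbols updated to GRCm38.p6 by Entrez number. The probe set of each gene with the highest mean over all arrays stood for it. Groups were read from the sample titles. Lines were compared in limma 3.58.1 (R 4.3.3) by lmFit and a trended eBayes, two-sided, which was also tested on simulated data. The floor, chosen after the data were seen, came from 27 bacterial control probe sets. It was their 95th percentile on the array where that was highest, SThdh7/7 sample 2, which stood apart as described above. The same percentile was 72.0 to 77.5 on the SThdh111/111 arrays and 98.6 to 129.8 on the SThdh7/7 arrays. Where all arrays of a line lay below the floor of 129.8, a fold is given as a bound against that floor.

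The members, lists and tests were chosen with earlier results of these data known. Named partner and marker genes are the 2 called genes per list and direction with the lowest adjusted p, and Htt. Genes named for lying below the floor, and Vim, were chosen after their values were seen. Alternatives were other filters, quantile normalization, centring, no trend, array weights, fewer probe sets, gene means, a replicate block, arrays left out and an exact permutation test. Figures were drawn with matplotlib 3.10.9.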

Additional observations from a re-analysis of the deposited data

Results flagged for a closer look

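In a group of 4 arrays, a value was picked out when its gap to the nearest other array was a large enough share of the whole range of the group by Dixon's criterion at the 95% level. Chance picks about 1 in 20 groups, and 5 of the 134 groups tested were picked, 2 of them among the 34 groups of the deacetylases. At the Hdac7 probe set 1420813_at, SThdh7/7 sample 2 measured 9.92, against 10.43 to 10.49 on the other 3 SThdh7/7 arrays. At the dim Hdac2 probe set 1439704_at, SThdh111/111 sample 2 measured 6.41, below the floor, against 7.10 to 7.23 on the other 3 SThdh111/111 arrays. The intensity of sample 2 there was 85.2, above the floor of its own array at 74.7. Among the partner genes, Chd3 stood at 9.48 in SThdh111/111 sample 4, against 9.75 to 9.80 on the others, and Mef2a at 11.02 in SThdh111/111 sample 2, against 10.84 to 10.86. Coro2a stood at 7.18 in SThdh7/7 sample 3, against 7.83 to 7.92.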

How the results depend on the processing

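The count of called deacetylase genes was 3 to 5 under all 19 alternatives, against 4 as reported, and 3 to 5 probe sets were called under 18, against 4. With 1 array left out these ran from 3 to 5 genes and from 4 to 5 probe sets. Over the whole array 9288 probe sets were called, 8115 to 8754 with 1 array left out and 6132 with only probe sets specific to 1 transcript, where fewer were tested. Equal sample numbers did not pair the arrays (correlations of deviations -0.01 to 0.01), and with the number as a replicate block 4 deacetylase genes, 4 of their probe sets and 8828 probe sets in all were called. The filter at a log2 of 8 left no Hdac9 probe set, and the restriction to specific probe sets left none for Hdac3. Hdac5 reached p = 0.029 in the exact permutation test, unadjusted and the smallest that 4 against 4 can give. Calls per list ranged over alternatives from 2 to 9 for NuRD (6 as reported), 2 to 7 for Sin3 (6), 1 to 4 for CoREST (3), 0 to 1 for the Hdac3 complex (1), 1 to 2 for MEF2 (2), 1 to 5 for the 14-3-3 genes (5), 4 to 6 for the kinases (6), 1 to 7 for Hdac6 partners (3) and 0 to 4 for cohesin (2). Of the markers, calls ranged from 2 to 4 for striatal (4), 1 to 3 for neuronal (2), 1 to 4 for astrocyte (3), 0 to 1 for oligodendrocyte (1) and 0 to 1 for endothelial genes (1). Aldh1l1, at -2.47, turned to 1.16 with only probe sets specific to 1 transcript, where another probe set stood for it. The cause of other changes was not tested. Dim probe sets, those of Hdac9 above all, limit what these arrays can show.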
